A study of Mus musculus with 6 samples.

Results

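The 158 ATAC-seq peaks assigned to 8 genes of the erythroid lineage were examined among the 175929 peaks of the deposited table. The genes were Klf1, Epor, Tfrc, Alas2, Hba-a1, Slc4a1, Ank1 and Ermap, and a peak was a member when its gene name was 1 of these and its distance to the transcription start site (TSS) was at most 100000 bp. The genes were chosen from earlier results of the same tamoxifen and oil libraries, so their differences between the groups are given as a description, without a test. Ank1 contributed 89 peaks, Tfrc 27, Slc4a1 16, Epor 8, Klf1 and Hba-a1 5 each, and Alas2 and Ermap 4 each. The farthest member lay 46036 bp from its TSS, and 0 further peaks of these genes lay beyond the limit. Some peaks within the bounds of these genes are given to other genes, 9 of 81 in Ank1, 2 of 3 in Alas2 and 1 of 4 in Ermap. Those are not members.

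Red cells arise from c-Kit-positive progenitors that pass through erythropoietin-dependent stages before they fill with haemoglobin and lose c-Kit. GATA1, with TAL1 and the CACC-box factor KLF1, drives this programme: iron enters through the transferrin receptor, heme is built from ALAS2 onward, globin chains are made, and a membrane skeleton is anchored to the band 3 anion exchanger by ankyrin. Erythroid regulatory DNA can be accessible in immature blood cells before the genes are strongly expressed. In acute myeloid leukaemia with the AML1/ETO fusion, differentiation is blocked, and AE9a is a truncated, strongly leukaemogenic form of that fusion.

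ATAC-seq, in which a transposase inserts adapters into open DNA, was performed on Lin- c-Kit+ GFP+ leukaemia cells sorted from mouse spleens. All cells carried AE9a, 1 floxed and 1 wild-type Usp18 allele (Usp18+/f) and a Cre recombinase that tamoxifen activates, which is fused to an oestrogen receptor part and driven by a promoter active in most tissues. Per the study's methods, the leukaemia was made by transducing fetal liver cells with AE9a and was grown in young adult C57BL/6 recipients of both sexes, with GFP on the AE9a vector as the mark by which leukaemia cells were told from host cells. Ill recipients received oil (replicates 1, 2 and 4, cells labelled Usp18+/f) or tamoxifen (replicates 1, 3 and 4, cells labelled Usp18+/D, the deleted allele), and cells were taken 3 days after the first injection. Both groups share AE9a and Cre, the tamoxifen libraries alone had the drug, and a drug effect and an effect of Usp18 loss cannot be told apart. The labels do not say if the 3 libraries of a group stand for 3 mice, and the study's text conflicts on it, as it gives fewer biological replicates for ATAC-seq in general than mice per group for the sorted cells of this experiment. For this reason n and SD are over libraries and the spread may be partly technical.

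Total tags ran from 57.4 M to 74.7 M per library (M, 1000000 tags), and 28.2 to 30.5% of them lay in peaks. A tag here is a read end counted in steps of 0.5, and "tags" below means tags divided by the size factor of DESeq2. At Usp18 the TSS peak held 459, 415 and 439.9 tags after oil and 441, 468 and 438 after tamoxifen. As no source used here says which exons are floxed, this peak does not check the deletion.

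The sequences below are the member peaks at which promoters or the lowest tamoxifen values could be read directly. They were taken from GRCm38.p6 (mm10) as distributed by RefSeq, on the strand of the gene, 5′ to 3′, with exons removed. Capitals mark GATA sites, the letters AGATAA or TGATAA on either strand, which are the core recognised by GATA1 and its relatives.

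The Klf1 promoter peak, chr8:84901774-84901977, plus strand, ended just short of the first exon and held 1 GATA site.
Klf1 promoter: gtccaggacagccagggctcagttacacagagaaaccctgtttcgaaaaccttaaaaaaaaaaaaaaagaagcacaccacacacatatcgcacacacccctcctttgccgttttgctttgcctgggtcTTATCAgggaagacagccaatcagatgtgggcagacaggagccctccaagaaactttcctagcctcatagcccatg

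The Epor promoter peak, of which chr9:21963577-21963772, minus strand, lay upstream of the first exon, held 1 GATA site and 1 CACC box.
Epor promoter: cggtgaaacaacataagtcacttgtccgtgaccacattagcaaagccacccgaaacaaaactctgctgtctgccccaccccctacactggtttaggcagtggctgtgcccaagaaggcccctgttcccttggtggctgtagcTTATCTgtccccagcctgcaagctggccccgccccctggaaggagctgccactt

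The Alas2 promoter peak, of which chrX:150547252-150547384, plus strand, lay upstream of the first exon, held 1 GATA site and 1 CACC box in that part.
Alas2 promoter: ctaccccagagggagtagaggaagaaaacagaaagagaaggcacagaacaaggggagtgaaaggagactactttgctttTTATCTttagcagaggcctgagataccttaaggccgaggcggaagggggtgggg

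The Slc4a1 peak in intron 1, chr11:102363613-102363860, minus strand, was the only member at an adjusted p under 0.05 in DESeq2 and held 2 GATA sites.
Slc4a1 intron 1: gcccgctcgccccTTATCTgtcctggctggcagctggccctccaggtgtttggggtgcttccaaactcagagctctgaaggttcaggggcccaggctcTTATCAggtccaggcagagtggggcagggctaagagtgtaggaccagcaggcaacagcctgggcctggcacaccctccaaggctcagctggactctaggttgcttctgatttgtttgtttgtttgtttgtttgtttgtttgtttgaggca

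The Ermap promoter peak, of which chr4:119190014-119190181, minus strand, lay upstream of the first exon, held 1 GATA site.
Ermap promoter: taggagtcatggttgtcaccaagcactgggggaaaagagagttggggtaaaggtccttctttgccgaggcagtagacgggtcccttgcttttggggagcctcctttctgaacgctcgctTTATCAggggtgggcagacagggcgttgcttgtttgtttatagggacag

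The peak upstream of Hba-a1, chr11:32280711-32280985, plus strand, had the lowest log2 fold change of all members and held no (0) GATA site.
Hba-a1 upstream: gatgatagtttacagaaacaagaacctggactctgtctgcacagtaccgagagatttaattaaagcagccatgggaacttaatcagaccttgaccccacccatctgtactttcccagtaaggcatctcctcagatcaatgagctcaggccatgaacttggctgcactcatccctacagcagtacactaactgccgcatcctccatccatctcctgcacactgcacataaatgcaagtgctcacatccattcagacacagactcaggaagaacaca

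The Tfrc promoter peak, of which chr16:32608791-32608895, plus strand, lay upstream of the first exon, was as a whole the densest member per length, and the printed part also held 0 GATA sites.
Tfrc promoter: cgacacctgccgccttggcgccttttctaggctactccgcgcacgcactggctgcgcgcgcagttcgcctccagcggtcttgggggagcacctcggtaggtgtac

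Erythroid peaks lay slightly lower after tamoxifen, with small differences at single peaks. The log2 fold change of tamoxifen against oil was below 0 at 112 of 158 peaks (70.9%) and had a median of -0.14, beside 50.3% and -0.0013 over all peaks. Its quartiles were -0.31 and 0.04 for the members and -0.18 and 0.19 for all peaks, and the median standard error of a member peak was 0.31, so most members could not be told from 0 singly. By gene the median was -0.30 for Hba-a1, -0.21 for Epor, -0.19 for Tfrc, -0.18 for Klf1, -0.14 for Ank1, -0.11 for Ermap, -0.11 for Slc4a1 and 0.05 for Alas2. In bulk libraries fewer cells with open erythroid DNA and less accessibility in each cell cannot be told apart. The plot of fold changes by gene shows these values peak by peak.

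**Figure D1:**
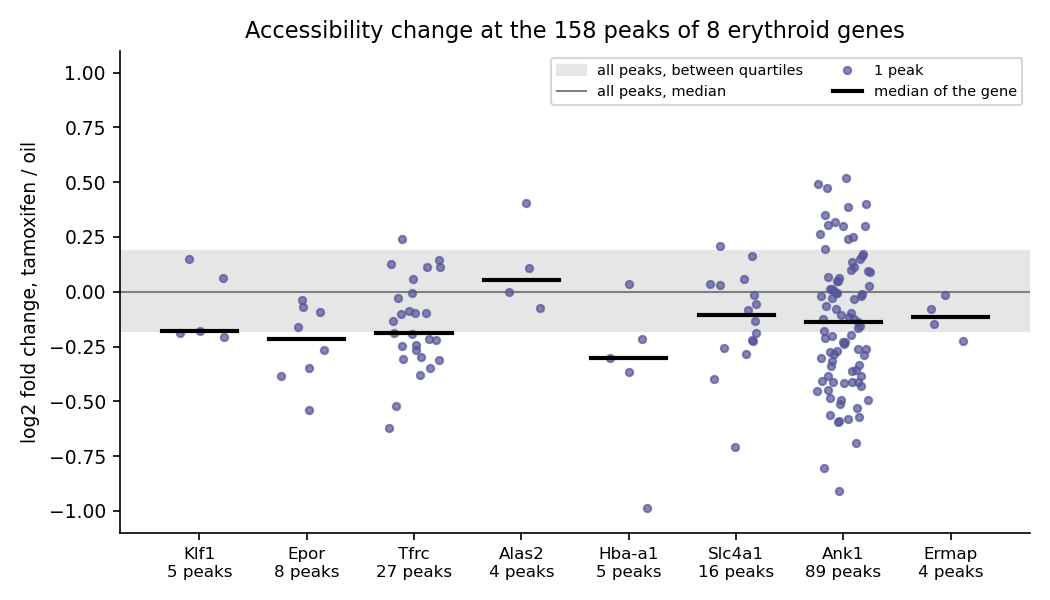
Log2 fold change of tamoxifen against oil (vertical axis) at each of the 158 peaks, by gene, with black bars at the gene medians and a grey band between the quartiles of all 175929 peaks. The gene medians lie between -0.30 for Hba-a1 and 0.05 for Alas2, and Ank1 has both low and high peaks.

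Of the members, 0 passed both a change of more than 2-fold and an adjusted p under 0.05 (termed called) in DESeq2, where 0.654% of all peaks were called, and 0 were called by the quasi-likelihood test of edgeR. At an adjusted p under 0.05 alone, 1 member was lower (0.167% of all peaks lower in DESeq2) and 0 were higher (1.22% of all peaks higher). At an unadjusted p under 0.05, 9 were lower (2.84% of all peaks) and 0 higher (6.18%). edgeR gave 2 members lower at an adjusted p under 0.05, beside 0.521% of all peaks, which were the Slc4a1 intron 1 peak and the upstream Hba-a1 peak. All 3 tamoxifen libraries lay below all 3 oil libraries at 29 members (9.99% of all peaks) and above them at 6 (11.8% of all peaks). Since the genes were chosen on this contrast, these counts stand as a description. The single member at the adjusted threshold was lost when any of the 3 oil libraries, tamoxifen replicate 1 or tamoxifen replicate 3 was left out, whereas without tamoxifen replicate 4 there were 4 such members and the median over members was -0.06. Over all peaks the count also fell without any of the former, and rose to 2508 lower and 4021 higher without tamoxifen replicate 4.

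The peak lists from which the table was merged also differed by group. Of the members, 89 (56.3%) were on both lists, 59 (37.3%) on the oil list alone and 10 (6.33%) on the tamoxifen list alone, beside 71.4%, 17.4% and 11.2% of all peaks. By annotation 99 members lay in introns, 25 between genes, 16 at promoters and 13 in exons. Within 3000 bp of a TSS the median log2 fold change was -0.16 (50 peaks), beyond it -0.13 (108 peaks), beside -0.01 and 0.01 over all peaks of those classes.

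Levels of the peaks nearest the TSS differed widely between the genes. Per kilobase of peak, the oil mean was 3497 tags ± 335 (SD, n = 3) for Tfrc, 1599 ± 70.2 for Klf1, 1529 ± 44.4 for Ank1, 532 ± 38.2 for Ermap, 313 ± 17.3 for Epor, 258 ± 20.8 for Hba-a1, 128 ± 20.8 for Alas2 and 96.0 ± 32.2 for Slc4a1. Among 14458 genes with a peak within 1000 bp of their TSS the median was 1557 tags per kilobase, so that Tfrc stood at the 95.4th percentile, Klf1 and Ank1 near the middle at 50.9 and 49.3, and Alas2 and Slc4a1 low at 12.5 and 6.59. Neighbours in this order whose means lay within their spread were Klf1 and Ank1, and Alas2 and Slc4a1. Kit, the surface marker of the sort, stood at 80.3 and Gata1 at 63.8. In the plot of TSS peaks by library, oil and tamoxifen libraries overlap at 7 of the 8 genes.

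**Figure D2:**
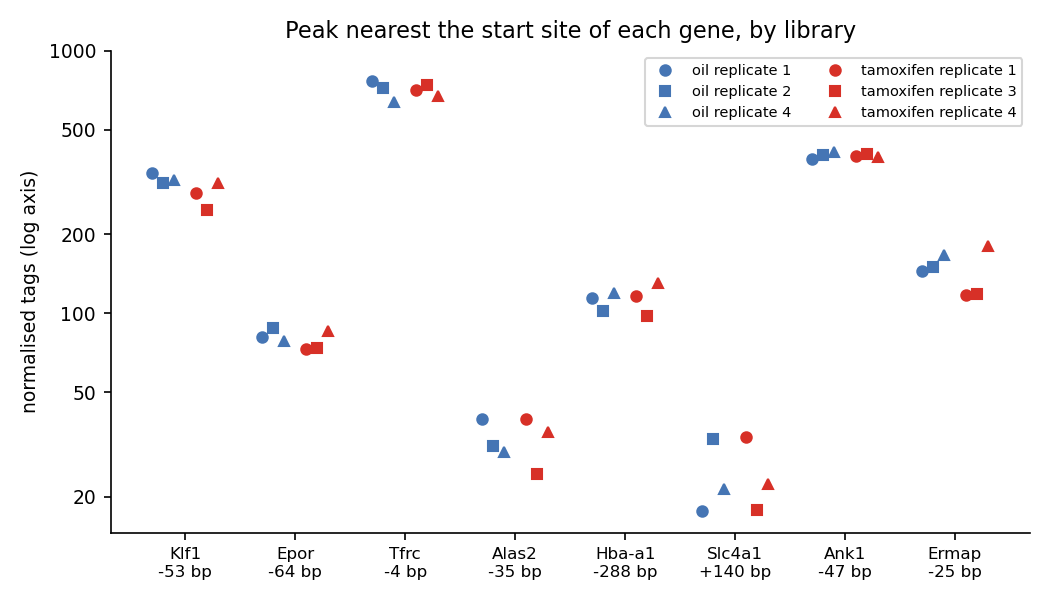
Normalised tags (vertical log axis) in the peak nearest the TSS of each gene, with its distance to the TSS under the gene name; each point is 1 library, blue for oil and red for tamoxifen. Only at Klf1 do the 3 tamoxifen points, 247 to 313 tags, all lie below the oil points, 314 to 342 tags.

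Klf1 encodes the CACC-box factor required for adult globin and many membrane genes. Its promoter peak held 342, 314 and 323 tags after oil and 286, 247 and 313 after tamoxifen, a log2 fold change of -0.21 ± 0.12 (SE). The oil and tamoxifen ranges did not overlap, but only just, as tamoxifen replicate 4 nearly reached oil replicate 2. The peak 640 bp upstream held 243, 234 and 231 tags after oil and 207, 203 and 215 after tamoxifen (-0.18 ± 0.13), and that in intron 1 held 195, 215 and 223 against 189, 191 and 177 (-0.19 ± 0.14). These 3 peaks around the start site all separated the groups in the lower direction, as did 9.99% of all peaks.

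Inside Klf1 the order turned. The exon 2 peak 1574 bp from the TSS held 377, 383 and 394 tags after oil and 429, 452 and 400.4 after tamoxifen, 0.15 ± 0.10 on the log2 scale, with all tamoxifen libraries above oil. The neighbouring exon 2 peak, the densest of the gene, held 564, 534 and 495 tags after oil and 561, 582 and 519.6 after tamoxifen (0.06 ± 0.10), and its groups overlapped. The median of the 5 Klf1 peaks therefore hides both directions.

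Epor encodes the erythropoietin receptor, which keeps erythroid progenitors alive through JAK2 and STAT5. All 8 of its peaks had a log2 fold change below 0 (beside 50.3% of all peaks). At 4 of them the tamoxifen libraries lay below oil (beside 9.99% of all peaks). The promoter peak held 81.6, 87.8 and 78.8 tags after oil and 73.5, 73.5 and 85.7 after tamoxifen (-0.09 ± 0.21), with overlapping groups. The lowest was an intron 1 peak 411 bp from the TSS with 69.5, 70.2 and 64.5 tags after oil and 41.6, 42.3 and 55.9 after tamoxifen (-0.54 ± 0.25). Here tamoxifen replicate 4 stood nearest to oil, and the ranges were apart.

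The densest Epor peak, 978 bp into the gene in intron 1, also had its highest fold change. It held 639, 638 and 589 tags after oil and 601, 617 and 599.7 after tamoxifen, a log2 fold change of -0.04 ± 0.09. Its groups overlapped, so the lower values of Epor were those of its weaker peaks. The exon 1 peak, for instance, held 68.4, 62.4 and 64.5 tags after oil and 51.2, 47.9 and 50.3 after tamoxifen (-0.38 ± 0.25).

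Tfrc encodes transferrin receptor 1, through which erythroid and other dividing cells take up iron. Its TSS peak, the densest member, held 770.0, 724 and 636 tags after oil and 709, 739.8 and 670.4 after tamoxifen (-0.0056 ± 0.092). The libraries of the groups were interleaved there. The highest fold change was at an intron 1 peak 3367 bp from the TSS, with 46.3, 46.8 and 46.6 tags after oil and 46.4, 72.4 and 47.5 after tamoxifen (0.24 ± 0.28), where tamoxifen replicate 3 alone stood apart.

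The lowest Tfrc fold change was in intron 11, 12937 bp from the TSS, with 44.1, 56.6 and 53.8 tags after oil and 44.5, 37.9 and 18.6 after tamoxifen (-0.62 ± 0.32). This peak belonged to a stretch that was chosen after the values were seen, the 14 peaks from 6229 to 14011 bp into the gene. Their summed tags were 929, 929 and 888 after oil, against 1148 in tamoxifen replicate 1, 745 in replicate 3 and 400.4 in replicate 4. Relative to the oil mean these were 1.25, 0.814 and 0.437, while the oil libraries ran from 0.97 to 1.02.

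The tamoxifen libraries thus differed more from each other than from oil within the Tfrc gene body. Tamoxifen replicate 4 was the lowest of the 6 libraries at 14 of the 14 peaks and tamoxifen replicate 1 the highest at 12. Over the 10 peaks from the TSS to 5157 bp the sums relative to the oil mean were 1.01, 1.14 and 0.901 in tamoxifen replicates 1, 3 and 4. Tamoxifen replicate 4 was the lowest library at 21 of all 27 Tfrc peaks (77.8%), beside 15.5% of all peaks of the table. Without it the median log2 fold change of Tfrc was 0.08 in place of -0.19, so its direction rested on that library. The plot along Tfrc shows where the libraries part.

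**Figure D3:**
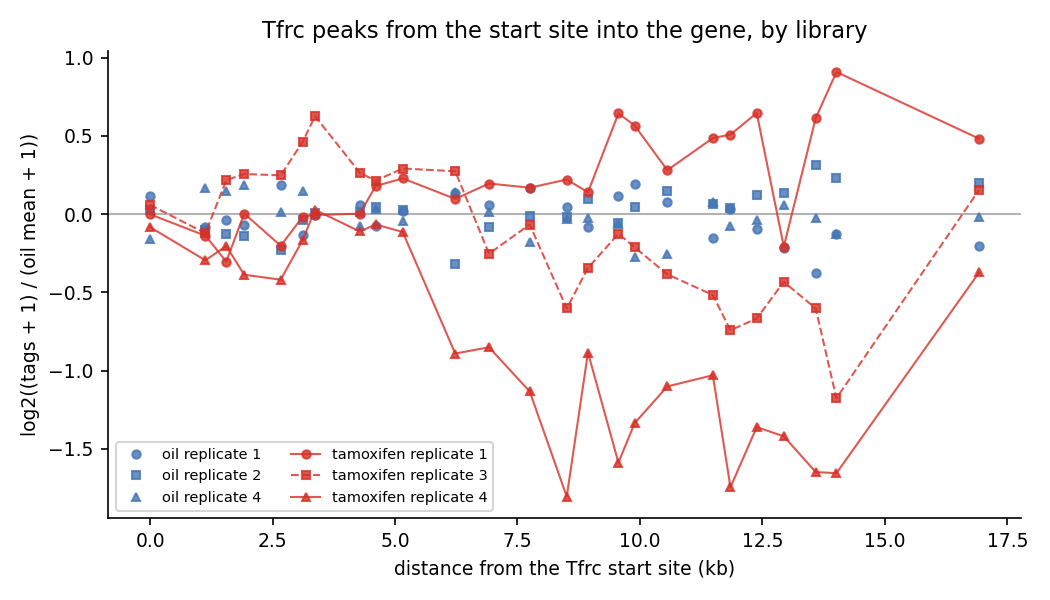
Log2 ratio of tags to the oil mean, with a pseudocount of 1 (vertical axis), at Tfrc peaks against distance from the TSS in kb (horizontal axis), 1 marker per library, with lines for tamoxifen. Up to 5157 bp tamoxifen replicate 3 lies above all oil libraries at 8 of 10 peaks, and from 6229 to 14011 bp tamoxifen replicate 1 lies mostly above and tamoxifen replicate 4 below all oil libraries.

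Alas2 encodes the erythroid form of the first heme synthesis enzyme. Its promoter peak was weak, with 39.7, 31.2 and 29.6 tags after oil and 39.6, 24.5 and 35.4 after tamoxifen (-0.00087 ± 0.33). The highest fold change was 7152 bp upstream, with 39.7, 31.2 and 26.9 tags after oil and 49.3, 33.4 and 45.6 after tamoxifen (0.41 ± 0.32). The lowest was 35974 bp upstream, with 36.4, 39.0 and 45.7 after oil and 32.9, 45.7 and 37.2 after tamoxifen (-0.07 ± 0.30). All 4 Alas2 peaks overlapped between the groups and all 4 were on both peak lists. The gene was the only member with a median above 0, and that median was -0.02 without oil replicate 2. Of the 4 peaks behind it, 3 lay between genes. It leaves out 2 of the 3 peaks within the Alas2 gene, which are given to Mir3620.

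Hba-a1 encodes an adult alpha globin chain. Its promoter peak, 288 bp from the TSS, held 115, 102 and 120.1 tags after oil and 116, 98.0 and 130.4 after tamoxifen (0.03 ± 0.19), without separation. The lowest member of all, 2824 bp upstream, held 33.1, 45.8 and 39.4 tags after oil and 13.5, 20.1 and 26.1 after tamoxifen (-0.99 ± 0.37). There the oil values lay above every tamoxifen value, and the peak was on the oil list alone. Of the other three peaks, 2 lay nearest the start of the near-identical copy Hba-a2, although the table names Hba-a1. Reads from the copies cannot be assigned with certainty, so the Hba-a1 values are uncertain. The peak beside the Hba-a2 promoter held 41.9, 54.6 and 48.4 tags after oil and 37.7, 40.1 and 40.04 after tamoxifen (-0.30 ± 0.28).

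Slc4a1 encodes band 3, the anion exchanger of the red cell membrane. Its intron 1 peak, 1545 bp from the TSS, held 131, 140.4 and 109 tags after oil and 73.5, 73.5 and 85.7 after tamoxifen, means of 127 ± 16.0 and 77.6 ± 7.03 (SD, n = 3) and a log2 fold change of -0.71 ± 0.20. It was the densest Slc4a1 peak, was on both peak lists, and the groups were well apart. The peak at the TSS itself held only 17.6, 33.2 and 21.5 tags after oil and 33.8, 17.8 and 22.3 after tamoxifen (0.04 ± 0.41), and here the groups overlapped.

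The peaks described for a gene are the one nearest the TSS, the lowest and the highest, and any others were picked after their values were seen. Elsewhere in Slc4a1 the differences were small. The highest fold change among peaks with a mean of at least 20 tags was at the gene end, 17032 bp from the TSS, with 15.4, 27.3 and 14.3 tags after oil and 32.9, 20.1 and 13.0 after tamoxifen (0.21 ± 0.46). The intron 17 peak held 72.8, 71.2 and 87.8 tags after oil and 56.1, 66.9 and 54.0 after tamoxifen (-0.40 ± 0.23), the only other of the 16 at which all tamoxifen libraries lay below oil. At the remaining 14 the groups overlapped. Peaks with all tamoxifen libraries below oil were thus 12.5% of those of Slc4a1, near the 9.99% of all peaks.

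Ank1 encodes ankyrin 1, which ties band 3 to the spectrin skeleton. Its nearest-TSS peak, at an internal promoter, held 387, 399.8 and 410.4 tags after oil and 398, 403 and 393 after tamoxifen (-0.0048 ± 0.10), with no visible difference. The densest Ank1 peak, 6702 bp upstream of that start, held on average 630.4 ± 35.4 tags after oil and 615 ± 13.8 after tamoxifen (-0.04 ± 0.09). Both of these peaks were thus nearly alike in the groups, but not every strong Ank1 peak was. The peak 4001 bp upstream of a later start held 341, 320 and 360 tags after oil and 275, 205 and 345 after tamoxifen (-0.30 ± 0.15). Its groups overlapped through tamoxifen replicate 4.

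Other Ank1 peaks spread to both sides. The lowest with a mean of at least 20 tags, in intron 37, held 32.0, 29.3 and 32.3 tags after oil and 23.2, 13.4 and 16.8 after tamoxifen (-0.80 ± 0.39). The highest, in an intron 1, held 52.9, 41.0 and 36.7 tags after oil and 59.9, 76.9 and 50.3 after tamoxifen (0.52 ± 0.28), with a slight overlap. Over the 89 peaks, 59 had a log2 fold change below 0, tamoxifen lay below oil at 16 (18.0%, beside 9.99% of all peaks) and above it at 5 (5.62%, beside 11.8%). The oil list alone held 36 (40.4%, beside 17.4% of all peaks) and the tamoxifen list alone 6 (6.74%, beside 11.2%). As said above, list and fold change are not independent.

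The table assigns the Ank1 peaks to 4 start sites along the gene, a split made after the values were seen. From the first to the last start site the median log2 fold change was 0.07 over 22 peaks, -0.0048 over 21, -0.20 over 27 and -0.24 over 19. The peaks of the last start sites were mostly below 0, with 22 of 27 and 17 of 19, while those of the first were below 0 at 9 of 22. Tamoxifen replicate 3 was the lowest library at 31 of the 89 peaks (34.8%), beside 21.96% of all peaks.

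Ermap encodes an erythroblast membrane protein that carries the Scianna blood group. Its promoter peak held 146, 150.2 and 167 tags after oil and 118, 118 and 181 after tamoxifen (-0.15 ± 0.18), and tamoxifen replicate 4 was the highest of the 6 libraries. The lowest of its 4 peaks, 407 bp from the TSS, held 81.6, 89.7 and 95.9 tags after oil and 82.2, 64.6 and 81.9 after tamoxifen (-0.22 ± 0.21). The highest, 747 bp upstream, held 232, 213 and 209.7 tags after oil and 209, 221 and 218 after tamoxifen (-0.01 ± 0.13). All 4 overlapped between the groups.

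Seen by library, the tamoxifen samples did not move together from gene to gene. The mean over the 8 genes of the log2 level relative to oil was -0.10, -0.17 and -0.18 in tamoxifen replicates 1, 3 and 4, and from -0.0031 to 0.0046 in the oil libraries. For Tfrc these were 0.15, -0.11 and -0.77, and for Hba-a1 -0.56, -0.29 and -0.23. For Epor (-0.24, -0.32 and -0.16) and Klf1 (-0.06, -0.08 and -0.08) the 3 tamoxifen libraries stood close together. The plot of gene means shows Epor, Klf1, Ank1 and Hba-a1 as the genes at which all tamoxifen libraries lay below all oil libraries. How many of all genes do so was not counted, and the 8 genes were chosen on this contrast, so this is a description.

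**Figure D4:**
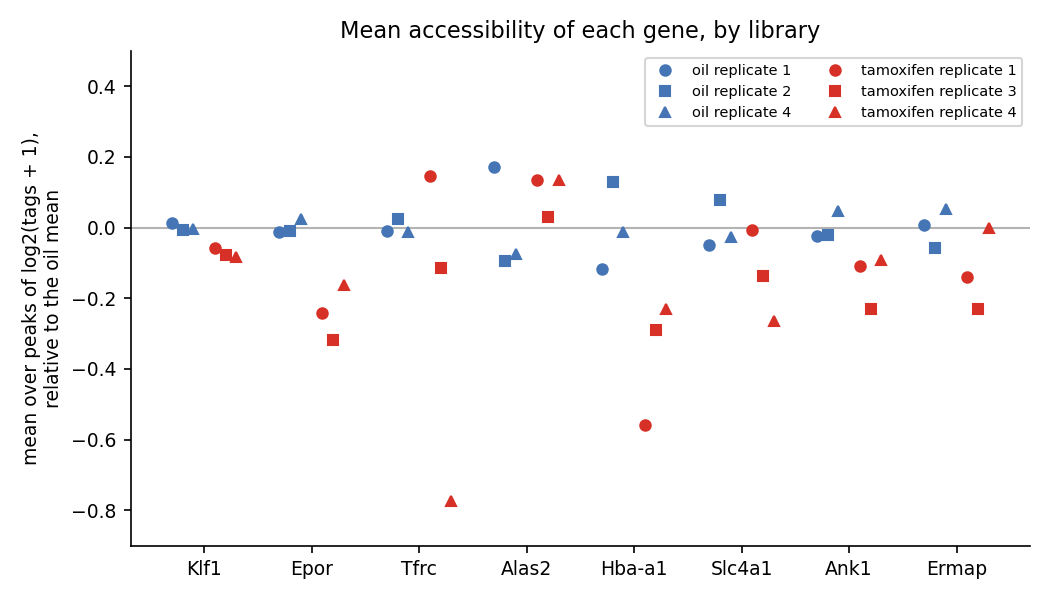
Mean over the peaks of each gene of log2(tags + 1) relative to the oil mean (vertical axis), 1 point per library, blue for oil and red for tamoxifen. Tamoxifen replicate 4 stands at -0.77 for Tfrc and tamoxifen replicate 1 at -0.56 for Hba-a1, while Alas2 shows no shift to lower values.

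Among genes with at least 5 peaks, those whose centred mean log2 profile over the 6 libraries was most like that of the 8 genes were Zfp839, Crebrf, Ptger4, Osbpl7 and Fam171a2. Their root-mean-square differences were 0.011 to 0.018 on the log2 scale, beside a median of 0.12 over the 11414 genes compared. This likeness is a description over 6 libraries.

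The wider lineage was examined through 72 further erythroid genes, of which 68 had 1141 peaks within the limit. Their median log2 fold change was -0.06. At an adjusted p under 0.05 in DESeq2, 7 peaks were lower (0.167% of all peaks) and 3 higher (1.22% of all peaks). Of the higher ones, 1 was called at a fold over 2 (0.654% of all peaks in either direction). The same shares of all peaks stand beside the counts by role that follow. The count of 10 at the adjusted threshold fell to between 1 and 3 when any 1 library other than tamoxifen replicate 4 was left out, and was 42 without that library. Counts over all peaks moved likewise, from 294 lower and 2154 higher to 2508 and 4021 without tamoxifen replicate 4. Without any other library they fell to 65 to 146 lower and 550 to 932 higher. These moves were thus not particular to erythroid genes.

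By role, erythroid transcription factors (13 genes, 443 peaks) had a median of -0.07 with 1 peak lower and 1 higher. The lower one was in intron 1 of Gfi1b, a repressor of the erythroid and megakaryocyte lines (228 ± 9.64 to 148 ± 26.5 tags, SD, n = 3, DESeq2 adjusted p = 0.00868), and the higher one in E2f2, a cell-cycle factor (71.9 ± 3.44 to 129 ± 41.2, adjusted p = 0.0265). These and the further single peaks of the lists below were picked after their values were seen. Gata1, the master regulator, had 16 peaks with a median of -0.16, and its TSS peak stood at 2092 ± 39.4 tags per kilobase after oil and 1929 ± 202 after tamoxifen. Tal1, its partner, had 16 peaks with a median of -0.03. Neither Gata1 nor Tal1 had a peak at the adjusted threshold.

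Heme synthesis enzymes (8 genes, 78 peaks) had a median of -0.10 and 0 peaks at the adjusted threshold in DESeq2 or edgeR, with 7 at an unadjusted p under 0.05 in DESeq2, 6 of them lower, and 16 in edgeR. Globin genes with Nprl3, whose introns hold the alpha globin enhancers (9 of 13 genes with a peak, 38 peaks), had a median of 0.02 and also 0 at the threshold in both tools, with 1 at an unadjusted p under 0.05 in DESeq2 and 3 in edgeR. Of all 175929 peaks, 15868 had an unadjusted p under 0.05 in DESeq2 (2.84% lower and 6.18% higher). In edgeR 30987 did, 12477 of them lower. No result about the heme or globin lists is read from these unadjusted counts. Iron handling genes (12 genes, 184 peaks, median -0.06) had 1 lower peak, in Slc25a38, the mitochondrial glycine carrier (108 ± 17.6 to 56.4 ± 12.2 tags, DESeq2 adjusted p = 0.0079). Membrane and surface genes (18 genes, 260 peaks, median -0.07) had 3 lower and 2 higher peaks, among them a lower one at Gypc, which encodes glycophorin C (179 ± 16.1 to 108 ± 38.5 tags, DESeq2 adjusted p = 0.0339). The remaining enzymes and regulators (8 genes, 138 peaks, median -0.01) had 2 lower peaks, at Blvrb, a biliverdin reductase (log2 fold change -0.42), and at Car2, a carbonic anhydrase (-0.80). Gene medians in this list went both ways, from -0.34 for Car2 to 0.41 for Trim58. Those of Car1 (0.16) and Prdx2 (0.22) were also above 0, and the others below.

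**Figure D5:**
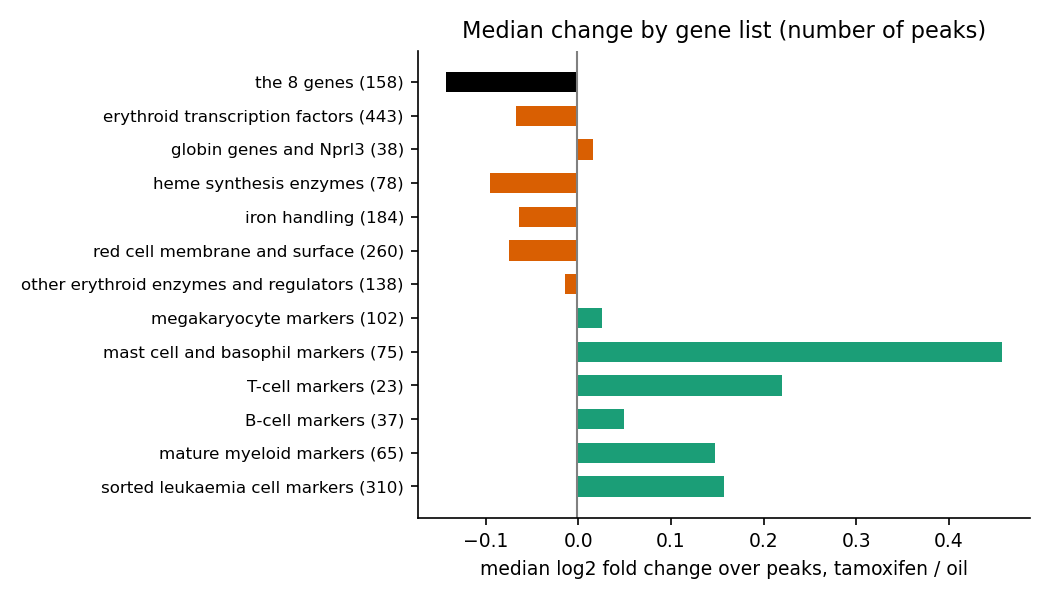
Median log2 fold change of tamoxifen against oil (horizontal axis) over the peaks of each gene list, with the number of peaks in brackets; black for the 8 genes, orange for other erythroid lists, green for markers of other cells, and a grey line at the median of all peaks. The 8 genes stand at -0.14, mast cell and basophil markers at 0.46.

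Medians of the marker lists of other cell types ran from 0.03 to 0.46. Their counts at the adjusted threshold in DESeq2 stand beside 0.167% of all peaks lower and 1.22% higher. Those of megakaryocyte and B-cell markers were near that of the globin list (0.02). Mast cell and basophil markers (75 peaks, 7 of 7 genes with a peak) showed a median of 0.46 on the log2 scale and summed to 4931 to 5547 tags per library after oil and 5828 to 7491 after tamoxifen, and 5 peaks rose at the adjusted threshold in DESeq2, all at Hdc, the histamine-making enzyme. At each of these Hdc peaks tamoxifen replicate 4 was the tamoxifen library nearest to oil. Megakaryocyte markers (10 of 11 genes, Ppbp without a peak) had a median of 0.03 and summed to 8057 to 8271 and 8456 to 8745 tags, with 2 peaks higher and 1 lower. Summed over its peaks, no list here was near 0 tags in either group, though single peaks could be. T-cell markers (7 of 7 genes) had a median of 0.22 and summed to 1059 to 1222 and 1242 to 1379 tags, with 1 peak higher, at Cd3d (log2 fold change 0.71, DESeq2 adjusted p = 3.74e-05). B-cell markers (5 of 6, Ms4a1 without a peak) had a median of 0.05 and summed to 2031 to 2106 and 2049 to 2263 tags, with 0 peaks at the adjusted threshold in DESeq2 or edgeR. At an unadjusted p under 0.05 there were 3 of 37 in DESeq2 and 5 in edgeR. Over all 175929 peaks these counts were 15868 and 30987. Mature myeloid markers (9 of 10, Camp without a peak) had a median of 0.15 and summed to 4055 to 4214 and 4384 to 4686 tags, with 1 peak called higher, at Cebpe (log2 fold change 2.37, DESeq2 adjusted p = 0.00746). That peak, upstream of the Cebpe TSS, was weak, with 4.41, 5.85 and 3.58 tags after oil and 29.0, 26.7 and 15.8 after tamoxifen.

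The sorted cells' own markers, Kit, Cd34, Runx1 and Myb (310 peaks), had a median of 0.16. At the adjusted threshold in DESeq2 7 peaks rose (2.26%, beside 1.22% of all peaks) and 1 fell (0.323%, beside 0.167%). The Kit TSS peak was alike in both groups, at 2724 ± 31.7 and 2832 ± 220 tags per kilobase (SD, n = 3), whereas that of Cd34, a marker of early progenitors, rose from 350.5 ± 80.7 to 999 ± 222 (log2 fold change 1.50, DESeq2 adjusted p = 8.32e-12). The 8 erythroid genes summed to 14066 to 14320 tags after oil and 12973 to 13639 after tamoxifen. The part of these other markers in the lower erythroid values was not tested.

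GATA sites were about as frequent in the member peaks as elsewhere. AGATAA or TGATAA occurred on either strand in 51 of the 158 members (32.3%) and in 28.5% of all peaks of the table, which differ in width. The CACC box, CCNCACCC, occurred in 22 members (13.9%, against 14.1%), the Runx site TGTGGT, recognised by RUNX1 (AML1), of which AE9a holds the DNA-binding part, in 41 (25.9%, against 24.2%), the Ets site GGAAGT in 32 (20.3%, against 22.9%) and the AP-1 or NF-E2 core, TGAGTCA or TGACTCA, in 11 (6.96%, against 6.38%). The E-box letters CTG followed after 7 to 9 letters by a GATA site, which overlaps the first motif, occurred in 8 members (5.06%, against 3.84%), including 2 of the 5 at Klf1. Median GC content was 50.4% in the members and 50.2% over all peaks.

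By gene, GATA sites were found in 3 of 4 Alas2, 3 of 4 Ermap, 3 of 5 Hba-a1, 2 of 5 Klf1, 6 of 16 Slc4a1, 25 of 89 Ank1, 8 of 27 Tfrc and 1 of 8 Epor peaks. Member peaks with the site had a median log2 fold change of -0.10 and those without it -0.18, beside -0.03 and 0.0048 over all peaks. The Slc4a1 intron 1 peak printed above held 2 such sites, while the upstream Hba-a1 peak held 0, so the lowest members did not share them.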

How the data were processed

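The data were ATAC-seq libraries of sorted leukaemia cells, 3 after oil and 3 after tamoxifen. Per the labels and the study's methods, the authors mapped reads to mm10 with Bowtie2, called peaks with HOMER (versions not given in the sources used here), merged the list of each group and annotated the merged peaks. In the deposited table a value is the unnormalised, estimated count of tags in a peak. It moves in steps of 0.5, and no position contributed more than 3 tags, which caps the densest peaks. A peak called in neither group is not in the table, and a low peak could enter through 1 group alone.

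Tags were rounded to whole numbers and fitted over all 175929 peaks with DESeq2 1.42.0 in R 4.3.3 (Wald test, Benjamini-Hochberg adjustment, median-of-ratios size factors), with edgeR 4.0.16 as an alternative. Both were checked on simulated data. Library totals and tags in peaks are given in the report, and medians over peaks ran from 45 to 57 tags by library. How much of the spread is counting error was not tested. No library was dropped or imputed in the fit given as the result.

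The members and gene lists were chosen with earlier results of these data known. Named peaks are, per member gene, that nearest the TSS and the lowest and highest log2 fold change among peaks with a mean of at least 20 tags. Beyond the members, genes with a called peak, Gata1, Tal1 and the 5 nearest profiles (log2 of tags + 1) were named, except 1 called peak that is not reported here. Of the TSS distances compared, 92.8% lay within 2 bp of the GRCm38 RefSeq annotation. Replicate numbers 1 and 4 occur in both groups, but the labels do not say what they share, and deviations of same-numbered libraries had correlations of -0.05 and 0.05 over 166688 peaks.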

Additional observations from a re-analysis of the deposited data

How the results depend on the processing

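The precision of single peaks limits these results, since the median standard error of a member (0.31, log2) exceeded the size of the median change (-0.14). No (0) member was called at a fold over 2 under any of the 15 alternatives run, edgeR included. The number of members at an adjusted p under 0.05 was 1 with each other scaling, 2 with edgeR, 0 to 4 when 1 library was left out (4 without tamoxifen replicate 4, 0 without any other) and 0 with the replicate block. The median over members stayed below 0 under each of 23 alternatives, from -0.063 (without tamoxifen replicate 4) to -0.18 (without tamoxifen replicate 1) when libraries were left out, and was -0.16 with the replicate block. Of the per-gene medians, 115 of 120 moved by less than the spread between libraries, yet that of Tfrc turned to 0.08 without tamoxifen replicate 4 and that of Alas2 to -0.02 without oil replicate 2. Other erythroid genes had 24 peaks at the threshold with edgeR, 1 to 42 when 1 library was left out and 0 with the replicate block. Counts over all peaks moved too, to 917 lower and 4219 higher with edgeR and 2508 and 4021 without tamoxifen replicate 4. The block used the 4 libraries numbered 1 and 4 alone, and the numbers are not shown to pair samples. With the block only 33 of all peaks were lower and 19 higher at the adjusted threshold, so its counts of 0 say little. The share of members with a GATA site was 24.7% in the central 200 bp, beside 22.97% of all peaks. A limit of 50000 bp or a mean of at least 10 tags removed no member, so those alternatives could not change the member counts. The cause of these changes was not tested.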
